A study of Mus musculus with 6 samples.

Results

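The imprinted growth genes H19, Igf2, Dlk1, Meg3, Peg3, Plagl1, Cdkn1c, Mest, Grb10 and Ndn are described here, 10 of the 19616 genes with deposited counts. They were chosen by their measured values in this same comparison, control against Hdac1/2-deleted intestinal epithelial cells (IEC), so their levels and differences are given as a description, without a test. Jejunal IEC were taken at 3 months of age from 3 mice of each genotype, and the RNA of each mouse was sequenced as 1 library, to find which transcripts depend on the histone deacetylases HDAC1 and HDAC2. Control mice C1, C3 and C3-3 were wild-type. Hdac1/2-deleted mice H1, H5 and H9 were villin-Cre Hdac1-/-; Hdac2-/-, in which floxed alleles are cut only in cells that express Cre from the villin promoter, that is, in the intestinal epithelium. The colony had a mixed C57BL/6J X 129SV X CD1 background. The cells were enriched with EDTA and not sorted, and poly(A) RNA was sequenced. The libraries held 65902344, 62311942 and 58017009 counts in control mice C1, C3 and C3-3 and 65230566, 36111035 and 60418894 in deleted mice H1, H5 and H9. Library H5 was thus the shallowest, and levels are given as CPM, counts scaled by the library total and its TMM factor.

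Hdac1 was measured first, as a check of the labels. Its level was 39.1, 34.5 and 48.8 CPM in control mice C1, C3 and C3-3 and 3.97, 2.53 and 4.81 CPM in deleted mice H1, H5 and H9. The groups did not overlap, and Hdac1 fell with a log2 fold change of -3.43 (SE 0.26, edgeR adjusted p = 2.9e-05, lower in 3 of 3 deleted mice). Hdac2 stood at 32.8, 23.6 and 26.5 CPM in control mice and at 26.6, 25.4 and 21.4 CPM in deleted mice. These ranges overlapped (log2 fold change -0.18, SE 0.17, edgeR adjusted p = 0.44), and with scaling by library totals alone the value was 0.01. Counts over a whole gene cannot show the loss of single exons, and which Hdac2 exons are floxed is not given in the sources used here, so the Hdac2 count does not check the labels. The epithelial label was checked with 8 markers, of which Vil1, the villin gene itself, and Lgals4 were the most abundant. Epcam, Krt20 and Cdh1 were lower in all deleted mice than in all control mice, each by less than 2-fold (-0.62, -0.57 and -0.40, edgeR adjusted p = 0.017, 0.032 and 0.073). Vil1 stood at -0.47 (SE 0.21, edgeR adjusted p = 0.1), with overlap between the groups. Krt8 and Lgals4 stood at 0.02 each and Krt19 and Cdx2 at 0.35 and 0.41 (edgeR adjusted p = 0.22 and 0.081). None of the 8 was called. The summed level of the 8 was 15981, 16129 and 18107 CPM in control mice and 13138, 14148 and 16166 CPM in deleted mice, which overlapped (exact permutation test, two-sided p = 0.3, where 3 mice against 3 cannot go below 0.10).

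Imprinted genes are transcribed from only the maternal or only the paternal copy, a choice set by DNA methylation in the germ line and kept in somatic cells. Many of them act on fetal growth: Igf2, Dlk1, Peg3 and Mest are paternally expressed, whereas H19, Meg3, Cdkn1c and, in most tissues, Grb10 are maternally expressed and, where their function is known, mostly restrain growth. In most mouse organs this group is abundant before birth and is turned down together after it. Read counts per gene do not tell the parental alleles apart, so imprinting itself was not measured, and neither were the promoters or isoforms used. The library kit marks strand, but whether the counting used it is not given in the sources used here, so a gene and its antisense partner cannot be told apart with certainty.

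H19 and Igf2 each hold microRNAs in their transcription units, miR-675 in H19 and miR-483 in Igf2, and these are shown because both host genes stood far higher in deleted IEC. The sequences are from RefSeq (GRCm38.p6), 5′ to 3′, with the seed, bases 2 to 8, in capitals.
miR-675-5p, chr7:142577112-142577133 (-): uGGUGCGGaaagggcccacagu
miR-675-3p, chr7:142577078-142577099 (-): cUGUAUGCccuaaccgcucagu
miR-483-5p, chr7:142654968-142654989 (-): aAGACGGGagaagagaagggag
miR-483-3p, chr7:142654932-142654952 (-): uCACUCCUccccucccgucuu
No seed is shared among the 4. Poly(A) libraries do not measure mature microRNAs. The row of the miR-483 hairpin gene, Mir483, a gene picked after its values were seen, held 0, 0 and 0 counts in control mice C1, C3 and C3-3 and 4, 2 and 6 in deleted mice H1, H5 and H9, and reads of the Igf2 transcript could fall on it as well.

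H19, the imprinted long noncoding RNA next to Igf2, lies on chromosome 7 from 142575529 to 142578143 of GRCm38, on the minus strand (ENSMUSG00000000031). Its raw counts were 169, 239 and 506 in control mice C1, C3 and C3-3 and 280602, 147766 and 291971 in deleted mice H1, H5 and H9. In CPM these were 2.55, 4.30 and 9.52 against 3786, 3889 and 4745. The 3 deleted mice lay close together and far above the 3 control mice, among which C3-3 stood highest. The mean was 5.46 ± 3.62 CPM (SD, n = 3) in control IEC and 4140 ± 526 CPM in deleted IEC, a log2 fold change of 9.57 (SE 0.60). Without control mouse C3-3 this value was 10.25. H19 alone took 0.430%, 0.409% and 0.483% of all counts in H1, H5 and H9, against at most 0.000872% in a control mouse. Ranked by CPM per kilobase of exon among 19532 genes with a known length, H19 was in place 10013, 8603 and 6498 in C1, C3 and C3-3 and in place 16, 20 and 17 in H1, H5 and H9.

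Igf2, the insulin-like growth factor that drives fetal growth, lies 72.6 kb from H19 on the same strand (chr7:142650766-142666816, ENSMUSG00000048583). Its counts were 221, 154 and 222 in control mice and 59897, 60182 and 106708 in deleted mice. The level was 3.34, 2.77 and 4.18 CPM in control mice C1, C3 and C3-3 and 808, 1584 and 1734 CPM in deleted mice H1, H5 and H9. All deleted mice were above all control mice, with H1 at about the level of the others in H19 but the lowest in Igf2. The log2 fold change was 8.65 (SE 0.40), and Igf2 moved from places 11280, 11627 and 10701 to places 343, 180 and 163 of the same ranking. Per kilobase, the ratio of H19 to Igf2 was 1.78, 3.61 and 5.30 in control mice and 10.9, 5.71 and 6.37 in deleted mice, so the H19 level was above the Igf2 level in every library.

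Transcripts that overlap H19 and Igf2 were high in the same mice. Igf2os, the antisense transcript across Igf2, had 10, 3 and 9 counts in control mice and 3724, 1518 and 6227 in deleted mice. Gm27786 and Gm27483, short noncoding entries on the strand opposite H19, had a single count between the 3 control mice each, in C3-3 and in C3, and 74 and 89 counts in the deleted mice. Over the summed counts the ratio was 74.5 for Gm27786 (95% counting interval 12.97 to 2984) and 89.7 for Gm27483 (15.7 to 3581). Without the mouse that held the single count neither has a ratio, and with another mouse left out they ran from 46.3 to 91.4 and from 55.7 to 125. These intervals, and the floors used further on, cover counting error only. How far reads of H19 and Igf2 themselves fell on the 3 antisense entries was not tested.

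**Figure D1:**
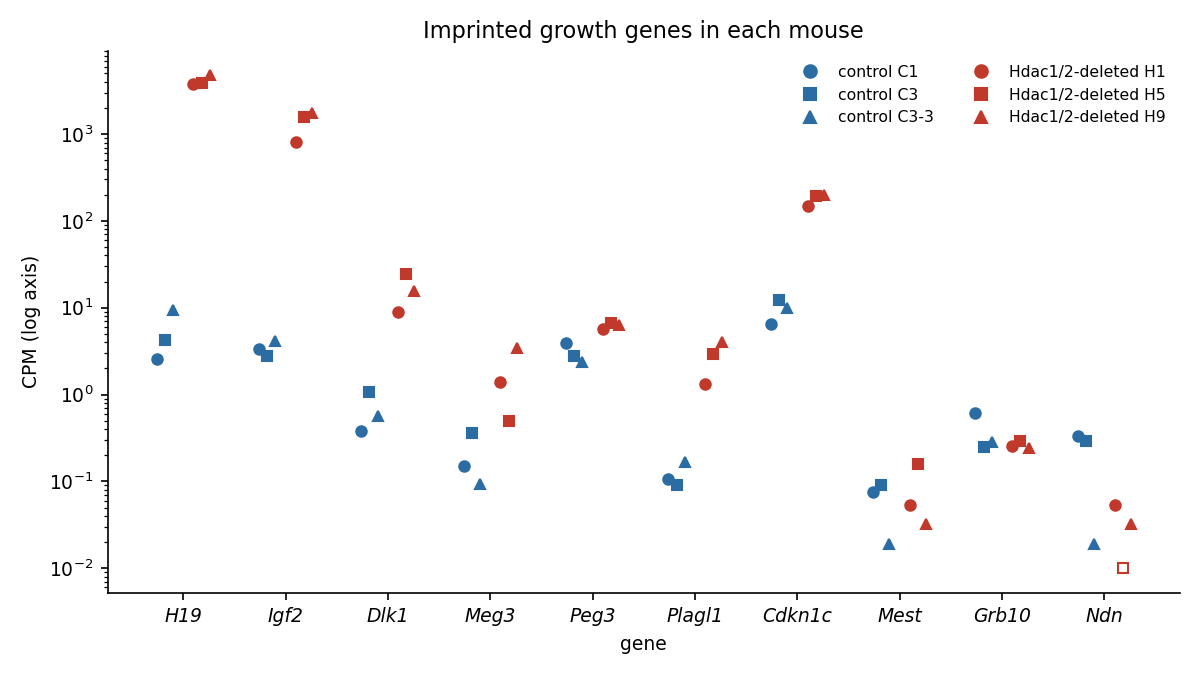
CPM (log axis) of the 10 imprinted growth genes, with 1 point per mouse, blue for control and red for Hdac1/2-deleted, and an open square at the bottom for the library with 0 counts (Ndn in H5). H19 and Igf2 reach 3786 to 4745 and 808 to 1734 CPM in deleted mice, and Mest, Grb10 and Ndn are below 1 CPM in all 6 mice.

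Dlk1, a membrane protein of the Delta and Notch ligand family that keeps precursor cells from differentiating, and Meg3, a maternally expressed long noncoding RNA, are neighbours on chromosome 12, 77.7 kb apart. Dlk1 had 25, 60 and 30 counts in control mice C1, C3 and C3-3 and 659, 933 and 957 in deleted mice H1, H5 and H9, or 0.377, 1.08 and 0.564 CPM against 8.89, 24.6 and 15.6 CPM. The groups were apart, with H5 highest. The log2 fold change was 4.60 (SE 0.52). Meg3 had 10, 20 and 5 counts in control mice and 104, 19 and 213 in deleted mice, or 0.151, 0.360 and 0.0941 CPM against 1.40, 0.500 and 3.46 CPM. The groups lay just apart, since H5, the shallowest library, was little above C3. The log2 fold change was 3.15 (SE 0.77), with 2.25 when H9 was left out and 3.84 when C3 was left out. Per kilobase, Dlk1 over Meg3 was 7.99, 9.59 and 19.2 in control mice and 20.3, 157 and 14.4 in H1, H5 and H9, so only H5, with its 19 counts of Meg3, was far from the control mice.

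Cdkn1c encodes p57, a maternally expressed CDK inhibitor that restrains cell division, and lies 792 kb beyond Igf2 on chromosome 7. Its counts were 429, 679 and 533 in control mice and 10996, 7435 and 12304 in deleted mice. The level was 6.48, 12.2 and 10.03 CPM in C1, C3 and C3-3 and 148, 196 and 200 CPM in H1, H5 and H9, a log2 fold change of 4.24 (SE 0.26). Every deleted mouse stood far above every control mouse, and Cdkn1c took places 680, 592 and 582 by CPM per kilobase in H1, H5 and H9, so it followed H19 and Igf2 as the most abundant of the 10 genes. Plagl1, also called Zac1, is a zinc finger transcription factor of chromosome 10 that acts on other imprinted genes. It had 7, 5 and 9 counts in control mice and 98, 112 and 247 in deleted mice, or 0.106, 0.0900 and 0.169 CPM against 1.32, 2.95 and 4.01 CPM. It was near the detection limit in all control mice and measurable in all deleted mice (log2 fold change 4.49, SE 0.54).

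Peg3, a paternally expressed zinc finger gene of chromosome 7, differed least among the genes whose groups were apart. Its level was 3.94, 2.81 and 2.37 CPM in control mice C1, C3 and C3-3 and 5.76, 6.71 and 6.31 CPM in deleted mice H1, H5 and H9. The highest control mouse and the lowest deleted mouse were less than 2-fold apart, and the log2 fold change was 1.04 (SE 0.26), which was under 2-fold without H5 (0.99), C3 (0.99) or C3-3 (0.90). Grb10, an adaptor that binds the insulin and IGF1 receptors and dampens their signal, had 41, 14 and 15 counts in control mice and 19, 11 and 15 in deleted mice. The groups overlapped, and the log2 fold change of -0.56 (SE 0.48) rested on C1, being -0.02 without it. Mest, a paternally expressed gene of mesoderm, had 5, 5 and 1 counts in control mice and 4, 6 and 2 in deleted mice. Ndn, which encodes the MAGE protein necdin, had 22, 16 and 1 counts in control mice and 4, 0 and 2 in deleted mice. Both overlapped between the groups, Ndn through C3-3 alone, and fitted without the filter they had log2 fold changes of 0.28 (SE 0.89) and -2.63 (SE 1.04).

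Of the 10 genes, 8 passed the filter on low counts and Mest and Ndn did not. Plagl1 and Meg3 passed it through the deleted group, since 0 and 1 of the 3 control mice reached the needed level. Of the 10, 7 met the limits used for a call, increased, Peg3 among them only with H5, C3 and C3-3 all kept, and the same 7 (H19, Igf2, Dlk1, Meg3, Peg3, Plagl1 and Cdkn1c) had every deleted mouse above every control mouse. Among the 15618 genes tested, 12.4% were called increased and 12.7% decreased, at an edgeR adjusted p of at most 0.05 and at least 2-fold. Every deleted mouse was above every control mouse for 26.7% of these genes, and below for 26.6%. Because the 10 genes were selected on this contrast, nothing is read from the comparison of these shares. Among all genes 1944 were called increased and 1989 decreased, and the median gene had a log2 fold change of -0.01. With library totals alone as the scale the median was 0.18, and the calls were 2463 and 1538.

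The promoters of these genes are shown for 5 examples, because Igf2, Dlk1, Meg3 and Plagl1 were high together and Grb10 was not. RefSeq (GRCm38.p6) gives 15 starts for 8 of the 10 genes, and H19 and Cdkn1c have no entry. Each sequence runs from 250 bases before to 50 bases after a start, on the gene's strand, and CpG dinucleotides, the sites of DNA methylation, are in capitals.
Igf2 promoter, chr7:142658755-142659054 (-): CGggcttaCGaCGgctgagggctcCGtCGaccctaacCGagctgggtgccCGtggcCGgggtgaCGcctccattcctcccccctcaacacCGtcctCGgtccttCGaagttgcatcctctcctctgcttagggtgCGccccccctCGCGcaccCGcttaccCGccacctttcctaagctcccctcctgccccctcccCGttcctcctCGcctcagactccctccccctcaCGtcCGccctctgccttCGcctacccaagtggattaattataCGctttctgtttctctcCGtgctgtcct
Dlk1 promoter, chr12:109452573-109452872 (+): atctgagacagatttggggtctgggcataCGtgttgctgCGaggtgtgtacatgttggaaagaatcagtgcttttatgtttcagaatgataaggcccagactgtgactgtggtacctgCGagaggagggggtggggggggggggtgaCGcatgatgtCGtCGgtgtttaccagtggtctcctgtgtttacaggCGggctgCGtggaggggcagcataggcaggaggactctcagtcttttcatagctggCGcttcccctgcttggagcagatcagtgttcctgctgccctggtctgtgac
Meg3 promoter, chr12:109540746-109541045 (+): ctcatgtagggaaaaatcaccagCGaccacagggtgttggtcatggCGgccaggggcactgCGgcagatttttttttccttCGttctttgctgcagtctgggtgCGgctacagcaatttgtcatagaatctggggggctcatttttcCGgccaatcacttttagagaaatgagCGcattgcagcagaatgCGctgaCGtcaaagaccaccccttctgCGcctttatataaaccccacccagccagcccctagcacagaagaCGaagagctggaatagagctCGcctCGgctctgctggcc
Plagl1 promoter, chr10:13090582-13090881 (+): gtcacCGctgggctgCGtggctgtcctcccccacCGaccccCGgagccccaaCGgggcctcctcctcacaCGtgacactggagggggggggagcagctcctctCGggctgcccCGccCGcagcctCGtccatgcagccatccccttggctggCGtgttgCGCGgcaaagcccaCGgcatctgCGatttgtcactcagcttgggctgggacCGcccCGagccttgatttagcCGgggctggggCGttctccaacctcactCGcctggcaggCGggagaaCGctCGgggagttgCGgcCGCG
Grb10 promoter, chr11:12037371-12037670 (-): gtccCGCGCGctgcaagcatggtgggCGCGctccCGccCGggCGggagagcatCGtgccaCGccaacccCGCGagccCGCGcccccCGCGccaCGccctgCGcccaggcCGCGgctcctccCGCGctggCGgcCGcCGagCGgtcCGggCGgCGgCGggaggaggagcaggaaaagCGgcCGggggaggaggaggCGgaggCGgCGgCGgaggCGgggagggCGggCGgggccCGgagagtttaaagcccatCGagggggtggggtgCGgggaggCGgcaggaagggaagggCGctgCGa
The windows held 24 CpG for Igf2, 9 for Dlk1, 13 for Meg3, 26 for Plagl1 and 45 for Grb10, where the median of all 32851 promoters was 7, with quartiles of 3 and 20. The other starts of Igf2 held 14, 7 and 2, that of Meg3 1 and that of Grb10 9. A core of the CTCF motif, CCGCGNGGNGGCAG on either strand, was in none of the 15 windows and in 12 promoters in all (0.0365%). The hexamer TGCCGC, bound by ZFP57 when methylated, is found on either strand in 6 of the 15 windows and in 3813 promoters in all (11.6%). These 6 were the windows shown of Meg3, Plagl1 and Grb10, another start of Igf2 than the one shown, and a pair for Mest that lie 3 bases apart and share their matches. The hexamer holds a CpG and was chosen after the data were seen. Most of the windows held more CpG than the median promoter, and several are starts of the same gene. The shares of windows and of all promoters are thus not like for like. A match of letters is a description only, and DNA methylation was not measured.

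The other imprinted genes gave a mixed picture. Of 57 further imprinted genes on a list drawn up by locus, 44 had counts and 36 were tested, of which 6 rose (16.7%), 4 fell (11.1%) and 26 were not called, with a median log2 fold change of -0.02. Among all genes tested these shares were 12.4% and 12.7%. Of the 6 that rose, 5 passed the filter through the deleted group alone, with 0 control mice at the needed level, and with at least 10 counts asked of every sample only 1 gene was called increased. Igf2os rose by 8.97 (SE 0.56, edgeR adjusted p = 3.5e-05). Since Igf2os lies across Igf2, whose reads may be counted on it, its call is not independent of Igf2. Peg10, a retrotransposon-derived gene needed in the placenta, had 1, 6 and 0 counts in control mice and 375, 256 and 357 in deleted mice (log2 fold change 7.11, SE 0.69, edgeR adjusted p = 1e-04), and without C3 the value was 9.14. The increase was thus seen in all 3 deleted mice. In the domain of Cdkn1c, Phlda2, which limits placental growth, rose from 26, 17 and 31 counts to 669, 348 and 342 (log2 fold change 4.21, SE 0.36, edgeR adjusted p = 5.1e-05). Kcnq1ot1, the paternally expressed RNA that silences that domain in cis, rose from 3, 6 and 7 counts to 44, 66 and 70 (log2 fold change 3.59, SE 0.59, edgeR adjusted p = 0.0014). Kcnq1 itself, the potassium channel, had a log2 fold change of -0.64 (SE 0.20, edgeR adjusted p = 0.032), below the 2-fold limit. Of 9 tested genes of this domain, only these, Phlda2 and Kcnq1ot1, were called.

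Downstream of Meg3, Rian, a host of small nucleolar RNAs, had 8, 8 and 0 counts in control mice and 86, 9 and 57 in deleted mice. It rose (log2 fold change 3.10, SE 0.88, edgeR adjusted p = 0.021), but the call was lost without H1 (2.70, adjusted p = 0.078 by edgeR) and without H9 (2.97, adjusted p = 0.057 by edgeR). Mirg, farther along the same domain, had 0, 0 and 0 counts against 4, 1 and 8 and was not tested. Nespas, the antisense RNA of the Gnas locus, had 0 counts in the 3 control mice and 15, 7 and 12 in the deleted mice, at least 3.73-fold higher against a floor of 3 counts per library (edgeR adjusted p = 0.0022). Gnas, which encodes a G protein subunit, was higher in all deleted mice without reaching 2-fold (log2 fold change 0.84, SE 0.16, edgeR adjusted p = 0.0029), and it passed that limit, at 1.03, with library totals alone.

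Among imprinted genes that fell, Nnat, which encodes the small membrane protein neuronatin, dropped from 33, 46 and 37 counts to 1, 2 and 1 (log2 fold change -4.70, SE 0.61, edgeR adjusted p = 4.3e-04, and -5.32 without H5). Peg13, a noncoding RNA within Trappc9, fell from 629, 719 and 603 counts to 300, 94 and 200 (log2 fold change -1.78, SE 0.25, edgeR adjusted p = 6.4e-04). Dcn (decorin) and Ppp1r9a (neurabin), named after their values were seen, were called decreased as well, with log2 fold changes of -1.48 and -1.02. Dcn was not called without H1, H5 or C1, and Ppp1r9a not without H9 or C1 or with library totals alone. Snrpn, a splicing protein gene, passed the p limit but not 2-fold (-0.58, SE 0.19, edgeR adjusted p = 0.041). Igf2r, which removes IGF2 from the cell surface, and Airn, the antisense RNA that silences it, were not called (0.38 and 0.11, edgeR adjusted p = 0.081 and 0.84), and the value of Airn changed sign without H9 (-0.17) or C1 (-0.10). Of the genes that rose, Phlda2 is maternally and Peg10 and Kcnq1ot1 are paternally expressed, and of those that fell, Nnat and Peg13 are paternally expressed. The parental copy of the other called genes is not given here, so no split by parent is read from these.

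**Figure D2:**
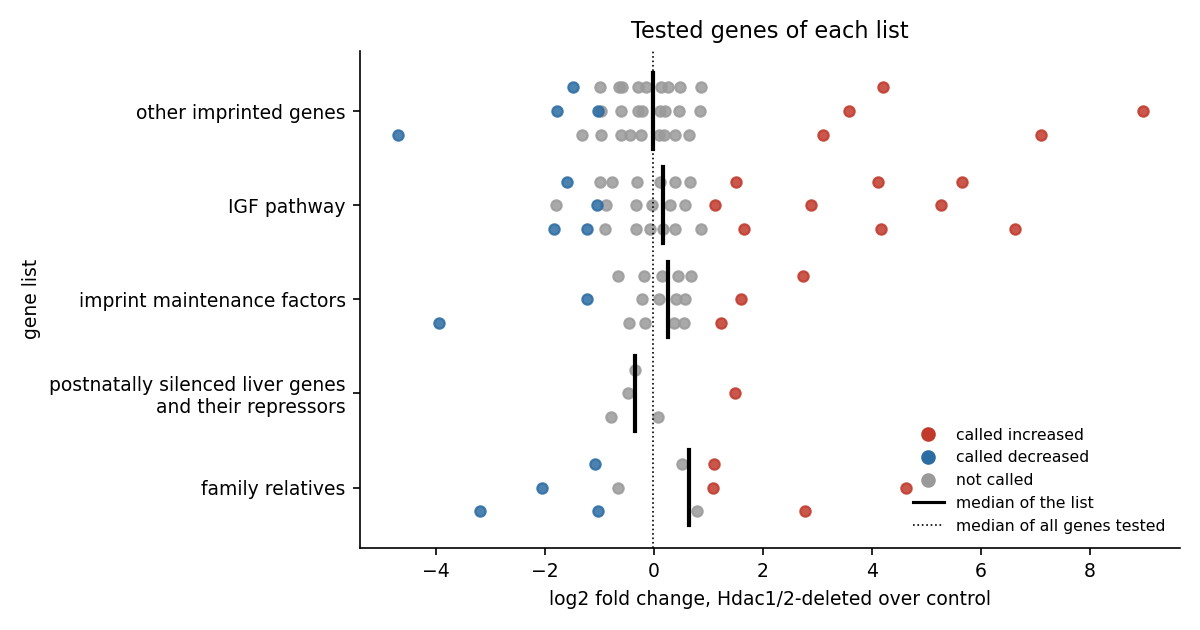
Log2 fold change of each tested gene, deleted over control, by list, in red when called increased, blue when called decreased and grey otherwise, with the median of each list as a line and that of all genes tested dotted. Of the other imprinted genes 6 were called increased and 4 decreased; Nespas and Dlk2, with 0 to 3 counts over the control mice, are not drawn.

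The proteins that carry the IGF2 signal were taken next. IGF1 and IGF2 act through the IGF1 receptor and the insulin receptor, secreted binding proteins hold them in the extracellular space, and IRS and GRB adaptors pass the signal to the PI3 kinase and mTOR pathway. Of 35 listed genes, 32 had counts and 31 were tested. Of these, 9 rose (29.0%, against 12.4% of all genes tested) and 4 fell (12.9%, against 12.7%). The other 18 were not called, and the median log2 fold change was 0.17. This list, like the others, was drawn up with earlier results of these data known. It takes in the genes of the IGF2 mRNA-binding proteins, all of them called increased, so the shares are a description only. Among the 4, Insr, the insulin receptor, had 8774, 5252 and 6019 counts in control mice and 3532, 2174 and 3672 in deleted mice. It fell by 1.05 on the log2 scale (SE 0.16, edgeR adjusted p = 0.0011), close to the 2-fold limit, and was under that limit without H1 (-0.95), without C1 (-0.91) and with library totals alone (-0.88). Igf1r, the main receptor of both ligands, was not called (-0.07, SE 0.34, edgeR adjusted p = 0.89), and its sign was positive without H1 (0.04), H9 (0.02) or C1 (0.18) and with library totals alone (0.10). Igf1, the other ligand, had 4, 4 and 0 counts against 5, 0 and 5 and was not tested. Ins2, Igfbp1 and Pappa were not analysed here.

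Of 7 tested binding protein genes 3 rose and 2 fell. Igfbp4 rose from 549, 374 and 396 counts to 3795, 2981 and 2289 (log2 fold change 2.89, SE 0.27, edgeR adjusted p = 9.2e-05). Igfbp2 rose from 10, 0 and 4 counts to 65, 84 and 76 (4.16, SE 0.80, edgeR adjusted p = 0.0033, and 5.20 without C1). Igfals, the subunit that prolongs the life of circulating IGF complexes, rose from 4, 2 and 11 counts to 244, 142 and 283 (5.26, SE 0.56, edgeR adjusted p = 1.5e-04, and 6.26 without C3-3). Igfbp3 (-1.83) and Igfbp5 (-1.22), named after their values were seen, were called decreased. Both calls were lost without H1, H5, H9, C1 or C3 and with library totals alone, and the groups overlapped for Igfbp3. Igfbp2, Igfbp4 and Igfals were higher in all deleted mice, and their calls held with any mouse left out. Stc2, an inhibitor of the protease that frees IGF from its binding proteins, rose by 4.11 (SE 0.63, edgeR adjusted p = 0.0011), and by 5.04 without C3.

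Among 16 adaptors and kinases 2 rose and 1 fell. Irs1, a docking protein of both receptors, rose from 26, 20 and 17 counts to 80, 52 and 58 (log2 fold change 1.65, SE 0.36, edgeR adjusted p = 0.0058). Grb7, the relative of Grb10, fell from 11921, 10299 and 6472 counts to 3728, 2429 and 2970 (-1.58, SE 0.20, edgeR adjusted p = 3.5e-04). Mtor, named after its values were seen, was called increased (1.12). The 3 genes of the IGF2 mRNA-binding proteins were all called increased, with log2 fold changes of 6.62 for Igf2bp1, 5.65 for Igf2bp3 and, also named afterwards, 1.50 for Igf2bp2, and the first 2 stood at 8.22 and 6.46 without C3-3. The count of decreased genes in the list depended on single mice, with 1 without H1, 1 without C1 and 2 without H9, while that of increased genes was 9 with any mouse left out. Of these 9, 3 (Igfbp2, Stc2 and Igf2bp1) passed the filter with 0 control mice at the needed level, and with at least 10 counts asked of every sample 5 genes were called increased.

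Proteins that set, keep or remove DNA methylation at imprinted loci formed another group. Of 20 listed genes 18 were tested, with a median log2 fold change of 0.27. Of these, 3 rose (16.7%, against 12.4% of all genes tested), 2 fell (11.1%, against 12.7%) and 13 were not called. Both shares were thus near those over all genes. Dnmt3a and Dnmt3b, the enzymes that place new methyl groups, rose by 1.23 and 2.73 (SE 0.13 and 0.26, edgeR adjusted p = 1.4e-04 and 9e-05), while Dnmt1, which copies methylation at replication, was not called (0.55, SE 0.21, edgeR adjusted p = 0.062). Ctcf, the insulator protein that separates Igf2 from its enhancers on the maternal allele, was not called (-0.46, SE 0.14, edgeR adjusted p = 0.024). Its germ line relative Ctcfl fell from 124, 30 and 90 counts to 5, 3 and 7 (-3.95, SE 0.60, edgeR adjusted p = 9.4e-04). Dppa3, which protects imprints in the early embryo, and Tet1, which oxidizes methylcytosine, were called at low counts (1.60 and -1.23, edgeR adjusted p = 0.041 and 0.045). Dppa3 had 2 to 5 counts in control mice and 6 to 18 in deleted mice, and its call was lost with each of the 6 mice left out in turn (1.32 to 1.87, adjusted p of 0.059 to 0.14 by edgeR). The call of Tet1 was lost without H1, H5, H9, C1 or C3-3 (-1.33 to -1.07, adjusted p of 0.095 to 0.15 by edgeR), which leaves 1 decreased gene.

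In liver, H19 is turned off after birth together with Afp and Gpc3, and ZHX2 and ZBTB20 take part in that silencing. Of these 5 listed genes, with Zfhx3 among them, 1 was called, increased (20%, against 12.4% of all genes tested). Gpc3, which encodes the growth-restraining proteoglycan glypican, rose from 24, 9 and 13 counts to 61, 28 and 38 (log2 fold change 1.49, SE 0.43, edgeR adjusted p = 0.022), and the call was lost without H1, H5, C3-3 or C3 (1.25 to 1.48, adjusted p of 0.052 to 0.075 by edgeR). Afp, the fetal plasma protein, had 2487, 1628 and 1690 counts in control mice and 2356, 1444 and 2125 in deleted mice (0.08, SE 0.15, edgeR adjusted p = 0.70). Zhx2 and Zbtb20 were not called (-0.34 and -0.47, edgeR adjusted p = 0.073 and 0.25). Afp did not share the large difference of H19, and the list median was -0.34. Whether the silencing known from liver acts in jejunal IEC was not tested.

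Relatives of the 10 genes by protein family were called in both directions. Of 13 listed genes 12 were tested, with a median log2 fold change of 0.65. Of these, 5 rose (41.7%, against 12.4% of all genes tested) and 4 fell (33.3%, against 12.7%). With any mouse left out, 3 of the 5 and 2 of the 4 kept their call. Dlk2 passed the filter with 0 control mice at the needed level, and Mageh1 with 0 deleted mice. The list was drawn up with earlier results of these data known, so the shares are a description only. Dlk2, the relative of Dlk1, had 1, 2 and 0 counts in control mice C1, C3 and C3-3 and 914, 198 and 666 in deleted mice H1, H5 and H9, a ratio of 597 over the sums (95% counting interval 204 to 2898, edgeR adjusted p = 2.1e-05). With a mouse left out this ratio ran from 416 to 1222, the latter without C3. The Notch ligand genes Jag2 and Jag1 rose by 4.63 and 1.10 (edgeR adjusted p = 7e-06 and 0.023), though Jag1 was not called without H1, H5, H9, C1 or C3-3 (0.81 to 1.15). Of the CDK inhibitors related to Cdkn1c, Cdkn1b fell from 2399, 1194 and 1309 counts to 673, 193 and 353 (-2.04, SE 0.28, edgeR adjusted p = 6.1e-04), while Cdkn1a was higher in all deleted mice without reaching 2-fold (0.51, edgeR adjusted p = 0.017). Plagl2 rose (1.09, edgeR adjusted p = 0.0012, and 0.96 without C3-3), and Plag1 fell (-1.09, edgeR adjusted p = 0.039). Plag1 was not called without H1, H5, H9, C1 or C3-3 (-1.18 to -0.85) or with library totals alone (-0.90). Of the MAGE genes related to Ndn, Maged1 rose by 2.78 (edgeR adjusted p = 1.9e-05) and Mageh1 fell by 3.19 (edgeR adjusted p = 5.9e-04). Maged2, named after its values were seen, was called decreased (-1.02), though not without H5 or C3-3 or with library totals alone.

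The genes around the imprinted loci were counted within 500 kb of each of the 10. Of 76 such genes, 14 of them also on the lists, 57 were tested, 15 rose (26.3%) and 10 fell (17.5%), against 12.4% and 12.7% of all genes tested, with a median log2 fold change of -0.07. Of the 15, 8 passed the filter with 0 control mice at the needed level. With at least 10 counts asked of every sample 7 rose and 6 fell, and within 250 kb 11 rose and 4 fell. Around H19, 8 of 17 tested neighbours rose and 1 fell, around Igf2 7 of 17 rose and 1 fell, and around Cdkn1c 7 of 17 rose and 1 fell. These 3 windows overlap, so a gene such as Trpm5 is counted in each of them. Of the neighbours that rose around H19 and Igf2, Gm27786, Gm27483 and Igf2os lie across H19 or Igf2 itself, where reads of the 2 genes may be counted too. Around Peg3, by contrast, 4 of 6 fell, in a window whose 6 tested genes are all zinc finger genes (Zfp28 -3.08, Zfp773 -3.62, Zfp418 -2.49 and Zfp954 -1.15, edgeR adjusted p = 0.0013, 0.0051, 3.8e-04 and 0.0011). Zfp773 stood at -2.90 without H1 and -4.27 without H5, and Zfp954 was under 2-fold with library totals alone (-0.96). No test was made of whether these counts differ between windows.

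Toward the centromere from H19, Syt8, a synaptotagmin, had 0 counts in the 3 control mice and 158, 84 and 66 in deleted mice, at least 34.8-fold higher against the floor of 3 counts per library (edgeR adjusted p = 2.1e-04). Next to it the muscle gene Tnni2 was called at 4, 5 and 0 against 22, 8 and 11 counts (2.13, edgeR adjusted p = 0.048), and the call was lost with each of the 6 mice left out in turn (1.61 to 2.75). The phosphatase gene Dusp8 rose by 1.23 (edgeR adjusted p = 9.3e-04). Between Igf2 and Cdkn1c, Th, the enzyme of catecholamine synthesis, fell from 27, 31 and 32 counts to 11, 3 and 9 (-2.005, edgeR adjusted p = 0.0070), whereas the noncoding R74862 (3.54, edgeR adjusted p = 1.2e-04) and Trpm5, a cation channel of tuft cells (1.38, edgeR adjusted p = 0.0088), rose. Beyond Cdkn1c the decoy receptor genes Tnfrsf22 and Tnfrsf23 rose by 2.14 and 1.48 (edgeR adjusted p = 0.0085 and 0.0014). Dhcr7, of cholesterol synthesis, was called increased at 1.01 and Mrgpre decreased at -1.32 (edgeR adjusted p = 0.015 and 0.028). Dhcr7 was under 2-fold without H9 (0.86) or C1 (0.76), and Mrgpre was not called without H1, H9, C3-3 or C3 (-1.27 to -1.14).

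**Figure D3:**
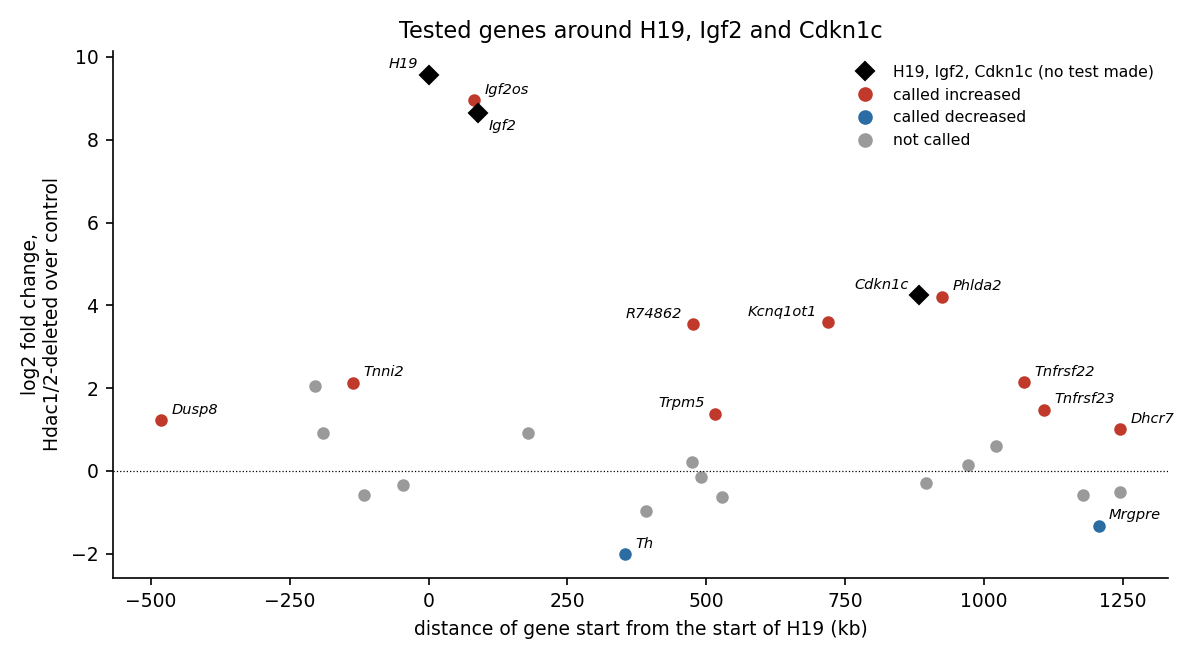
Log2 fold change, deleted over control, of the tested genes within 500 kb of H19, Igf2 or Cdkn1c against the distance in kb of their start from the start of H19, with called genes in red (increased) and blue (decreased) and others in grey. H19, Igf2 and Cdkn1c are black diamonds at 9.57, 8.65 and 4.24; Syt8, Gm27483 and Gm27786, with 0 to 3 counts over the control mice, are not drawn.

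Near Plagl1, Ltv1, of ribosome assembly, rose (1.16), and Utrn (utrophin, -1.21) and Phactr2 (-1.20) fell, with edgeR adjusted p = 0.0011, 0.0015 and 0.0036. Near Grb10 the actin nucleator Cobl fell (-1.35, edgeR adjusted p = 7.8e-04). Near Dlk1, Wdr25 was called decreased at the 2-fold limit (edgeR adjusted p = 0.044), and that call was lost with each of the 6 mice left out in turn (-1.20 to -0.73).

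RNA of other cell types was followed with marker lists. In bulk IEC, fewer cells of a type and less RNA per cell cannot be told apart. Smooth muscle markers were the list that differed most: their sum was 70.5, 56.1 and 3.03 CPM in control mice C1, C3 and C3-3 and 0.364, 0.395 and 0.390 CPM in deleted mice H1, H5 and H9 (exact permutation test, two-sided p = 0.1, the smallest possible). All 6 markers were called decreased, with Myh11 the most abundant at 1680, 700 and 24 counts in control mice and 1, 0 and 0 in deleted mice. Myh11 was at 0 in H5 and H9, Actg2 in H9 and Cnn1 in H1 and H5, and C3-3 was far below the other control mice. The call of Myh11 itself was lost without H1, which held its only count among the deleted mice (adjusted p = 0.12 by edgeR), or H9 (adjusted p = 0.066 by edgeR). Its log2 fold change was -10.67 with all mice, -12.46 without H1 and -10.18 without H9. The call of Des was lost without the same mice, while its value of -6.26 ran from -6.80 to -5.83 with a mouse left out.

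Fibroblast markers, 8 genes led by Vim, summed to 16.1, 15.9 and 11.7 CPM in control mice and 8.51, 9.95 and 12.0 CPM in deleted mice, with Lum at 0 in H5 and Pdpn at 0 in C3-3, H1 and H5 (exact permutation test, two-sided p = 0.2). Endothelial markers, 6 genes led by Pecam1, summed to 3.94, 2.34 and 2.18 CPM against 1.74, 2.61 and 3.22 CPM, with Kdr at 0 in C3-3 (exact permutation test, two-sided p = 0.7), and the direction changed without C1 (log2 ratio 0.16) or H1 (0.05). Both lists overlapped between the groups in their sums, though Dpt and Esam fell (-2.27 and -2.74, edgeR adjusted p = 0.027 and 0.0021). Dpt was not called without H1, H5 or C1, and its value ran from -2.78 to -1.39 with a mouse left out. Markers of enteric neurons and glia, 5 genes led by Ret, summed to 5.21, 5.35 and 3.35 CPM against 10.5, 10.9 and 8.47 CPM (exact permutation test, two-sided p = 0.1), with Sox10 at 0 in C3-3, H1, H5 and H9 and S100b at 0 in C3-3. This list was higher in all deleted mice, and Tubb3 rose (2.81, edgeR adjusted p = 0.0010). Elavl4 and Gfap were not analysed here.

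Lymphocyte markers, 6 genes led by Gzma, summed to 91.6, 339 and 295 CPM in control mice and 46.3, 106 and 90.4 CPM in deleted mice (exact permutation test, two-sided p = 0.2), where C1 alone lay within the range of the deleted mice. Gzma was not called (-1.82, edgeR adjusted p = 0.078), but was called decreased without C1 (-2.22, adjusted p = 0.017 by edgeR) and with DESeq2 (-1.80, adjusted p = 0.041). Myeloid markers, 6 genes led by Csf1r, summed to 11.3, 20.0 and 13.7 CPM against 19.7, 20.2 and 36.3 CPM (exact permutation test, two-sided p = 0.2). Enteroendocrine markers, 6 genes led by Chgb, summed to 410, 343 and 351 CPM against 389, 546 and 468 CPM (exact permutation test, two-sided p = 0.2). The groups overlapped in the sums of these 3 lists. Among their single markers Csf1r rose (1.75, edgeR adjusted p = 0.0023), while Cd8a and Scgn fell (-1.32 and -1.01, edgeR adjusted p = 0.038 and 0.023), calls that were lost with 5 and 6 of the 6 mice left out in turn. Pancreas markers, 4 genes led by Gp2, stayed low at 0.0906, 1.49 and 0.0564 CPM against 3.31, 0.763 and 0.276 CPM (exact permutation test, two-sided p = 0.5), with Cpa1 at 0 in C3-3 and H9 and Pnlip at 0 in C1, C3-3 and H9. The log2 ratio of this list, 1.41, was -0.07 without H1 and 4.30 without C3. Gp2 itself rose (2.98, edgeR adjusted p = 0.020), but was not called without H1, C1 or C3-3. Liver markers, 5 genes led by Cps1, which the jejunum expresses too, summed to 697, 690 and 490 CPM against 847, 576 and 540 CPM (exact permutation test, two-sided p = 0.9), with a log2 ratio of 0.06 that was -0.17 without H1 and -0.08 without C3-3. Cps1 made up most of this sum (694 of the 697 CPM in C1). Of the other 4, Ttr and Serpina1a rose (4.07 and 3.13, edgeR adjusted p = 0.0028 and 0.0061) and Alb fell (-1.82, edgeR adjusted p = 0.0047). These 3 calls held with any mouse left out, although Ttr then went as low as 3.07 and Serpina1a as high as 4.15. Ptf1a, Ins1 and Ahsg were not analysed here. The part of any of these cell types in the levels of the imprinted genes was not tested.

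**Figure D4:**
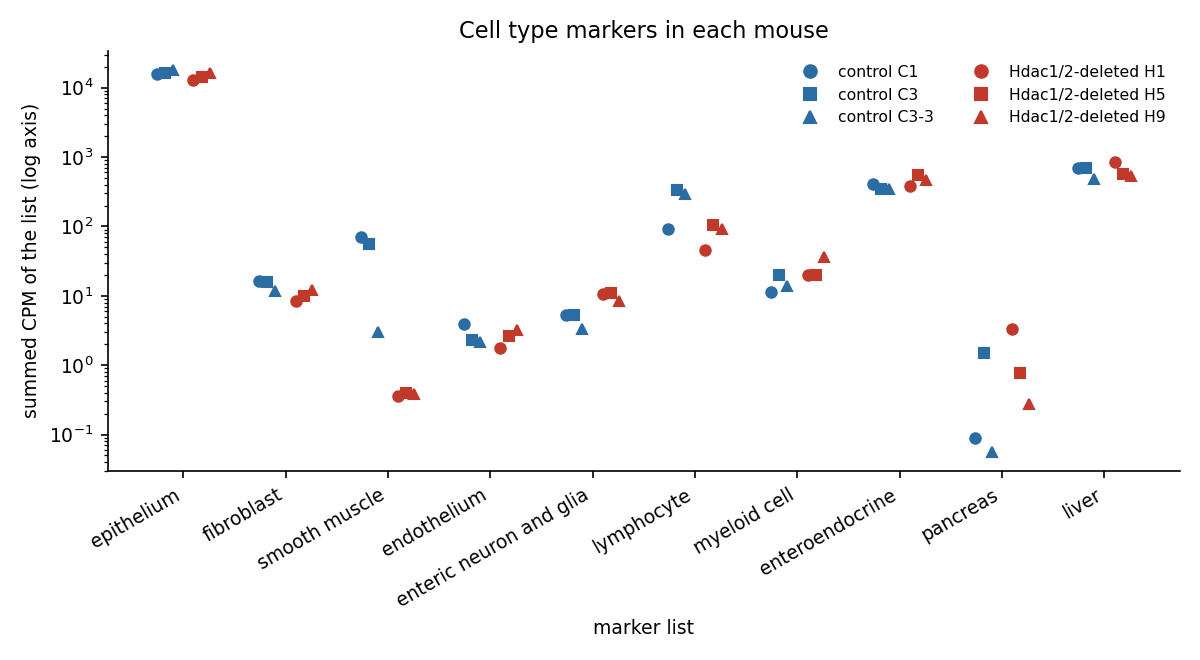
Summed CPM (log axis) of 10 marker lists, with 1 point per mouse, blue for control and red for Hdac1/2-deleted. Smooth muscle markers run from 3.03 to 70.5 CPM in control mice and from 0.364 to 0.395 CPM in deleted mice, while the epithelial lists of both groups overlap, between 13138 and 18107 CPM.

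The genes whose levels were most like those of H19 over the 6 mice, by Pearson correlation of log2 CPM, were Lrrc4 (r = 0.9995), Sik3 (0.9992), Mamdc4 (0.9991), Gnmt (0.9991) and Nynrin (0.9988). For Igf2 they were March9 (r = 0.9998), Cspg5 (0.9991), Mier2 (0.9991), Mfi2 (0.9991) and Nudt16l1 (0.9990). H19 and Igf2 correlated with each other at r = 0.993, which was place 107 among the 15617 other genes tested for H19 and place 134 for Igf2. A correlation of at least 0.99 was reached by 197 genes with H19 and by 253 with Igf2. The 6 values of each of these genes fall into 1 cluster per group, so that r rests largely on the gap between the groups, and it is given as a description.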

How the data were processed

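Jejunal IEC RNA of 3 control and 3 Hdac1/2-deleted mice was analysed from the raw read counts per gene that the authors deposited. They aligned reads with STAR (2.4.0f1 in the submitters' notes). The paper names GRCm38 and the notes name mm9 as the genome build. The counting program and annotation are not given in the sources used here. The deposited table also holds 6 per-sample scaled columns and the authors' own comparison (log fold change, log CPM, DESeq and edgeR p-values), none of which was used. Every gene in it has at least 10 counts over the 6 samples.

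Counts were filtered with filterByExpr, normalized with TMM and fitted with the robust quasi-likelihood model of edgeR 4.0.16 (limma 3.58.1, R 4.3.3), prior count 0.125, without covariates. The SE is the size of the log2 fold change divided by the square root of F. Benjamini-Hochberg adjustment covered 15618 genes, and a call needs a change of 2-fold or more with adjusted p no higher than 0.05. TMM factors were 0.892 to 1.14. Alternatives used DESeq2 1.42.0, other scalings, filters, limits and windows, a prior count of 2, and left out each mouse in turn. Tables and plots were made with pandas 2.3.3, scipy 1.17.1 and matplotlib 3.10.9 in Python 3.11.15. The model was tested on simulated data.

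Positions and exon lengths came from GENCODE mouse release 21 (GRCm38) for 19532 genes, and 84 genes have none. Correlations used log2 CPM with a prior count of 2. A motif core and the hexamer TGCCGC were searched in promoters, the latter chosen after seeing the data. The rule for named genes takes the 10 genes, each called gene of a list (above 8, the 8 that changed most without overlap), called neighbours, 20 genes of the field called or not, the most abundant marker of each cell type and the 5 genes most like H19 and Igf2. The 10 genes and the lists were chosen with earlier results of these data known. The proteome, qPCR and microscopy were not analysed here.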

Additional observations from a re-analysis of the deposited data

How the results depend on the processing

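With an adjusted p limit and no fold limit, 3198 genes were called increased and 3168 decreased. Increased counts were then 8 for other imprinted genes, 11 for the IGF pathway, 4 for imprint maintenance and 20 for neighbours. Decreased counts were 8, 6, 4 and 16 in the same order. With at least 10 counts in every sample, a rule that removes genes near 0 in control mice, increased counts were 1 for other imprinted genes, 5 for the IGF pathway and 7 for neighbours, and decreased counts were 0 for imprint maintenance (Ctcfl and Tet1 are not tested under it) and 6 for neighbours. With library totals only, 1 gene each of the IGF pathway and imprint maintenance was called decreased. With DESeq2, and with no filter, imprint maintenance had 1 decreased gene. A window of 250 kb held 4 decreased neighbours. With each mouse left out in turn, decreased genes ranged from 1 to 5 in the IGF pathway and from 1 to 2 in imprint maintenance. The causes were not tested.

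With a mouse left out, log2 fold changes ranged from 9.23 to 10.25 for H19, 8.45 to 8.92 for Igf2, 4.19 to 5.13 for Dlk1, 2.25 to 3.84 for Meg3, 0.90 to 1.28 for Peg3, 4.11 to 4.83 for Plagl1, 4.03 to 4.47 for Cdkn1c and -0.78 to -0.021 for Grb10. These ranges crossed 0 for Airn (-0.17 to 0.37), Cps1 (-0.25 to 0.17) and Igf1r (-0.31 to 0.18), and for the log2 ratios of the endothelium (-0.38 to 0.16), pancreas (-0.074 to 4.30) and liver (-0.17 to 0.18) markers. With library totals only the sign changed for Hdac2 (0.0069) and Igf1r (0.10).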
